A study of Mus musculus with 6 samples.

Results

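Expression of 10 circadian clock genes was followed in colon epithelial cells of mice with and without intestinal Zfp90. The genes were taken by name, with earlier results of these data known: Arntl, Clock and Npas2 as the positive limb of the clock, and Per1, Per2, Per3, Nr1d1, Nr1d2, Dbp and Tef as the negative limb and output. They are 10 of 52550 genes listed in the deposited tables, and 9 of them, Dbp being the exception, passed the filter of at least 1 FPKM (fragments counted on a gene, scaled to its transcript length and to the depth of the library) in at least 3 samples that left 11564 genes for testing.

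The series holds 6 RNA-seq samples of C57BL/6 males, 3 Zfp90fl/fl and 3 Zfp90ΔIEC, which entered the experiment at 6 to 8 weeks of age. In Zfp90fl/fl mice a part of the Zfp90 gene is flanked by loxP sites and the gene is intact. In Zfp90ΔIEC mice the study's methods give Cre recombinase under the Villin promoter, which is active in intestinal epithelial cells. Both genotypes carried the floxed allele and both received the same colitis-associated cancer regimen, so that no untreated sample enters: azoxymethane (AOM, a carcinogen) at 10 mg/kg, then, 5 days later, 3 cycles of 2% dextran sulfate sodium (DSS, which injures the colon lining) for 7 days with 14 days of water between them, and death on day 80. Ages and DSS concentration are those of the labels, and the study's methods state both differently. The epithelium was released with EDTA and DTT at 37 degrees, a warm step that all 6 samples shared. The paper states that the genotypes were kept apart after weaning, and it calls the treated mice mono-housed. Housing by genotype leaves a cage effect inseparable from a genotype effect. The clock hour at which each mouse was killed is not given in the sources used here. The genotype field of Zfp90ΔIEC replicates 2 and 3 reads Zfp91deltaIEC and Zfp92deltaIEC, and these 2 samples were grouped by their titles. Zfp90 itself was measured at 0.630, 0.490 and 0.569 FPKM in the 3 Zfp90fl/fl samples, in the order of their replicate numbers, and at 0.0846, 0.195 and 0.166 FPKM in the 3 Zfp90ΔIEC samples, so that all 3 samples of the second genotype lay below all 3 of the first.

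The mammalian clock is a transcriptional feedback loop. ARNTL (also called BMAL1) pairs with CLOCK or its paralog NPAS2, and the pair binds E-boxes and activates the Per and Cry genes, Nr1d1 and Nr1d2, and output factors such as Dbp and Tef. PER and CRY proteins then inhibit the pair, NR1D1 and NR1D2 (REV-ERB alpha and beta) repress Arntl and Npas2 through ROR response elements (RORE), and DBP and TEF activate genes through D-boxes at which NFIL3 represses. In a tissue whose cells run in step, positive limb and negative limb transcripts peak at opposing times of day, and in the gut epithelium meal times help to set them. Comparing both limbs therefore serves as a check on sampling phase, but it cannot by itself separate phase from genotype.

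The loop is known to close through short sites in promoters, and the windows below are shown because they hold the letters of such sites. They come from RefSeq promoters of GRCm38.p6, each running from 250 bases before to 50 bases after a start site; 14 such promoters matched 9 of the 10 members, with Per2 unmatched. The motifs searched on both strands were the E-box CACGTG, the E-prime box CACGTT, the D-box TTATGTAA or TTACGTAA, the cAMP response element TGACGTCA and the RORE. In each line the sequence runs 5′ to 3′ on the gene's strand and the capitals mark the motif, and in these windows no match overlaps another. The Tef windows lie at chr15:81802521-81802576 and chr15:81811251-81811306 (plus strand), Per1 at chr11:69098758-69098813 (plus), Nr1d1 at chr11:98775378-98775430 (minus), Cry1, a repressor partner of the PER proteins, at chr10:85185084-85185158 (minus), Per3 at chr4:151044791-151044895 (minus) and Arntl at chr7:113207528-113207557 (plus).
Tef, first promoter: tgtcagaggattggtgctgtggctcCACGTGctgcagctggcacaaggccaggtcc
Tef, second promoter: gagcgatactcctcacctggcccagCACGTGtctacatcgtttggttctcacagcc
Per1: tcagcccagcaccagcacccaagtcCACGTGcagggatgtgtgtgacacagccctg
Nr1d1: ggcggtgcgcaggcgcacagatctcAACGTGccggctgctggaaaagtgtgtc
Cry1: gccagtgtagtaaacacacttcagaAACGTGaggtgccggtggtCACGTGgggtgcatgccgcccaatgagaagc
Per3: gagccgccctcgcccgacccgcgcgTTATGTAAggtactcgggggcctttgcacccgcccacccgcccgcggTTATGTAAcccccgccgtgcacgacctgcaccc
Arntl: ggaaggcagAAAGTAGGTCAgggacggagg
Both Tef promoters and 1 of 2 Per1 promoters held an E-box, Nr1d1 held an E-prime box read on the opposite strand, Cry1 held both kinds, Per3 held a pair of D-boxes, and 1 of 2 Arntl promoters held a RORE, whose first base lies 26 bases after the start site. In all, 6 of the 14 member promoters held any of the motifs, and 0 of the 6 promoters of Clock, Npas2, Nr1d2 and Dbp did. An E-box was found in 3 of the 14 member promoters and in 7.15% of 32851 RefSeq promoters of the same length. The E-prime box was in 1 of 14 against 4.68%, the D-box in 1 of 14 against 1.06%, the RORE in 1 of 14 against 0.384%, and the cAMP response element in 0 of 14 against 1.79%. These are matches of letters, and binding was not measured in these samples.

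In the GENCODE annotation of GRCm38 the positive limb genes lie at chr7:113207465-113314126 (Arntl), chr5:76209868-76304792 (Clock) and chr1:39193731-39363236 (Npas2). The Per genes lie at chr11:69095217-69109960 (Per1), chr1:91415982-91459324 (Per2) and chr4:151003652-151044665 (Per3). Nr1d1 lies at chr11:98767932-98775333, Nr1d2 at chr14:18204054-18239127, Dbp at chr7:45705088-45710203 and Tef at chr15:81802421-81826863. Exons of Nr1d1 share 263 of their 3077 bases with Thra on the opposite strand, and exons of Dbp share 539 of 2993 bases with Sphk2 on the opposite strand. Sphk2 stood at 12.4 to 16.1 FPKM, far above Dbp. The kit is labelled strand-specific, but whether fragments were counted by strand is not given in the sources used here, so Dbp, and to a lesser degree Nr1d1, could hold fragments of these neighbours.

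The genes of the positive limb overlapped between genotypes. The REV-ERB genes Nr1d1 and Nr1d2 and the PAR bZIP genes Dbp and Tef were higher in every Zfp90ΔIEC sample than in any Zfp90fl/fl sample. Tef differed most, with a Zfp90ΔIEC mean 1.98 times the Zfp90fl/fl mean. No member passed an adjusted p under 0.05 in limma across 11564 genes, where 23 genes (0.199%) did. At an unadjusted p under 0.05, 3 of the 9 members tested (Nr1d1, Nr1d2 and Tef) were higher in Zfp90ΔIEC, beside 6.56% of all genes, and 0 of 9 were lower, beside 8.09%. The same 3 of 9 had no overlap between genotypes in the higher direction, beside 8.73% of all genes, and 0 of 9 in the lower direction, beside 12.6%. The median log2 fold change (Zfp90ΔIEC minus Zfp90fl/fl, on log2(FPKM + 1)) was -0.16 over the 3 positive limb genes, 0.31 over the 6 negative limb and output genes tested and -0.023 over all genes. The labels do not say whether each sample came from a separate mouse, so the p-values measure the spread between these samples.

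**Figure D1:**
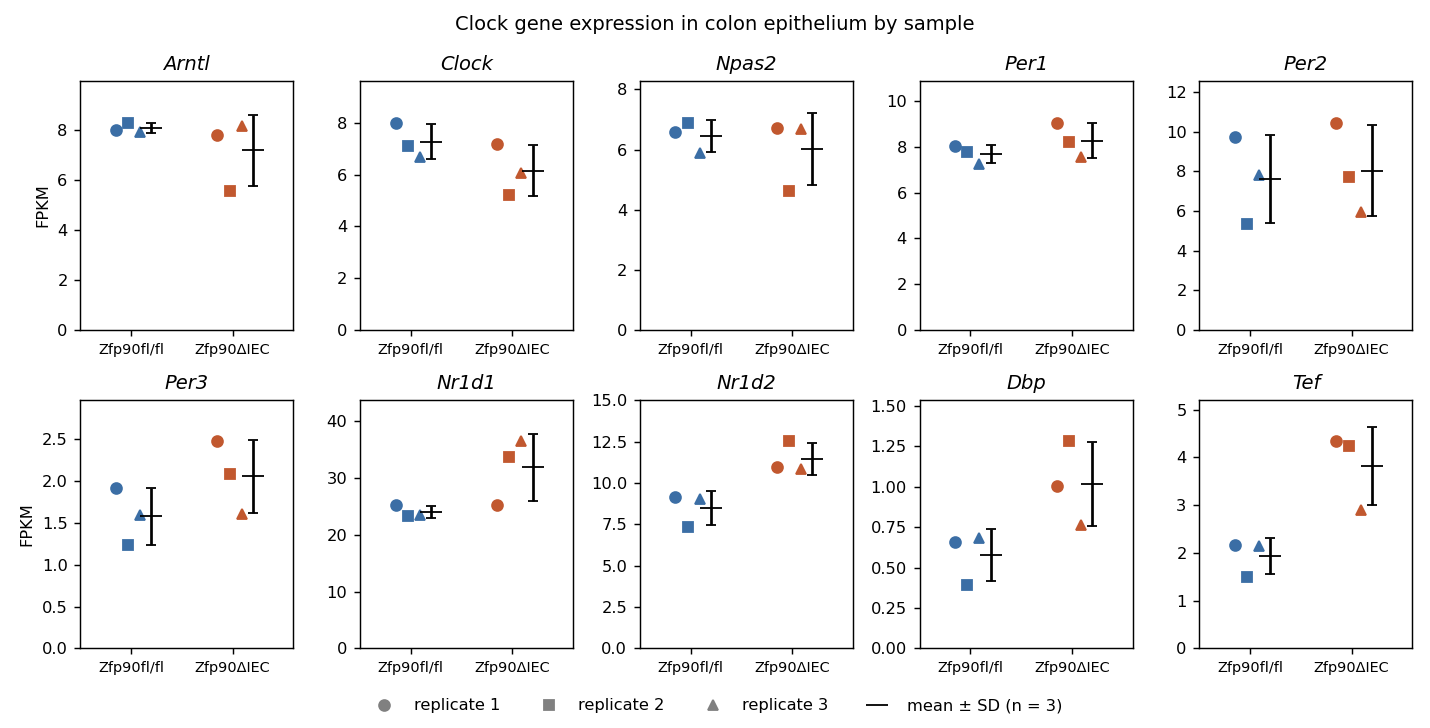
FPKM (vertical axes, starting at 0 and scaled per gene) of the 10 clock genes in 3 Zfp90fl/fl (blue) and 3 Zfp90ΔIEC (orange) samples, with symbols for the replicate number and bars for the mean ± SD. Nr1d1, Nr1d2, Dbp and Tef do not overlap between genotypes, Tef running from 1.496 to 2.16 FPKM in Zfp90fl/fl and from 2.89 to 4.34 FPKM in Zfp90ΔIEC.

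Arntl, the obligate partner in the activating pair, had 8.03, 8.32 and 7.94 FPKM in Zfp90fl/fl and 7.83, 5.57 and 8.19 FPKM in Zfp90ΔIEC, here and below in the order of replicates 1, 2 and 3. Zfp90ΔIEC replicate 2 was low, and the other 5 samples lay close together. The means were 8.09 ± 0.200 and 7.20 ± 1.42 FPKM (SD, n = 3), and the log2 fold change was -0.16 (SE 0.127, 95% interval -0.47 to 0.14, limma adjusted p = 0.600). Without Zfp90ΔIEC replicate 2 it was -0.013.

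Clock, which encodes the partner of ARNTL with histone acetyltransferase activity, was at 8.02, 7.12 and 6.68 FPKM in Zfp90fl/fl and at 7.20, 5.22 and 6.05 FPKM in Zfp90ΔIEC. The ranges overlapped, with Zfp90ΔIEC replicate 2 again the lowest. Its log2 fold change was -0.22 (SE 0.113, 95% interval -0.48 to 0.05, limma adjusted p = 0.438). Without Zfp90ΔIEC replicate 2 this value was -0.12, and without Zfp90ΔIEC replicate 1 it was -0.32. Npas2, the paralog of Clock, was at 6.60, 6.90 and 5.87 FPKM against 6.72, 4.63 and 6.70 FPKM. Here too replicate 2 of Zfp90ΔIEC was the low sample, and the log2 fold change of -0.10 (SE 0.133, limma adjusted p = 0.774) was 0.051 without it.

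The Per genes, whose proteins carry the inhibition back to the activating pair, overlapped between genotypes. Per1, which also responds directly to cAMP and glucocorticoid signals, was at 8.04, 7.79 and 7.23 FPKM in Zfp90fl/fl and at 9.07, 8.21 and 7.56 FPKM in Zfp90ΔIEC. Its log2 fold change was 0.09 (SE 0.0776, 95% interval -0.09 to 0.28, limma adjusted p = 0.637), the narrowest interval among the members. The fold change was 0.032 without Zfp90ΔIEC replicate 1 and 0.15 without Zfp90ΔIEC replicate 3. Per2 was at 9.75, 5.33 and 7.80 FPKM against 10.5, 7.72 and 5.93 FPKM. This gene spread about as widely within each genotype as over all 6 samples, and its log2 fold change of 0.07 (SE 0.238, 95% interval -0.49 to 0.63, limma adjusted p = 0.915) was -0.12 without Zfp90ΔIEC replicate 1 and -0.14 without Zfp90fl/fl replicate 2. Per3, the least abundant of the family, was at 1.91, 1.23 and 1.59 FPKM against 2.48, 2.08 and 1.61 FPKM. Its log2 fold change was 0.24 (SE 0.138, 95% interval -0.09 to 0.57, limma adjusted p = 0.472). With a sample left out this ran from 0.14 (without Zfp90fl/fl replicate 2) to 0.35 (without Zfp90ΔIEC replicate 3).

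Nr1d1, the most abundant member, was at 25.2, 23.3 and 23.5 FPKM in Zfp90fl/fl and at 25.3, 33.7 and 36.5 FPKM in Zfp90ΔIEC. Replicate 1 of Zfp90ΔIEC lay just above the highest Zfp90fl/fl sample, and the other two stood well apart from them. The log2 fold change was 0.38 (SE 0.130, 95% interval 0.07 to 0.69, unadjusted p = 0.0222, limma adjusted p = 0.260), and without that replicate 0.53 (adjusted p = 0.0641). Without Zfp90ΔIEC replicate 3 it was 0.28 (limma adjusted p = 0.411). The adjusted p of Nr1d1 ran from 0.0641 to 0.475 over the other settings and the samples left out. Nr1d2, its paralog, was at 9.17, 7.31 and 9.01 FPKM against 10.95, 12.5 and 10.8 FPKM. The ranges were separated by more than 1 FPKM, and the log2 fold change was 0.39 (SE 0.0984, 95% interval 0.16 to 0.63, unadjusted p = 0.00540, limma adjusted p = 0.143).

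Tef, a PAR bZIP activator of D-box genes, was at 2.16, 1.496 and 2.14 FPKM in Zfp90fl/fl and at 4.34, 4.25 and 2.89 FPKM in Zfp90ΔIEC. Its lowest Zfp90ΔIEC sample, replicate 3, was still above the highest Zfp90fl/fl sample. The means were 1.93 ± 0.379 and 3.83 ± 0.813 FPKM (SD, n = 3), with a log2 fold change of 0.71 (SE 0.152, 95% interval 0.35 to 1.07, unadjusted p = 0.00231, limma adjusted p = 0.117). Its adjusted p ran from 0.0788 to 0.274 over the other settings and the samples left out. Dbp, the second activator of this family, was at 0.656, 0.389 and 0.683 FPKM against 1.00, 1.28 and 0.765 FPKM. The ranges were 0.683 or below and 0.765 or above, and the estimated fragments per sample, 20.1 to 67.8, were the fewest of any member. Tested without the filter, its log2 fold change was 0.35 (SE 0.130, 95% interval 0.03 to 0.67, limma adjusted p = 0.447), and the pseudocount of 1 shrinks the fold change of so low a gene.

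**Figure D2:**
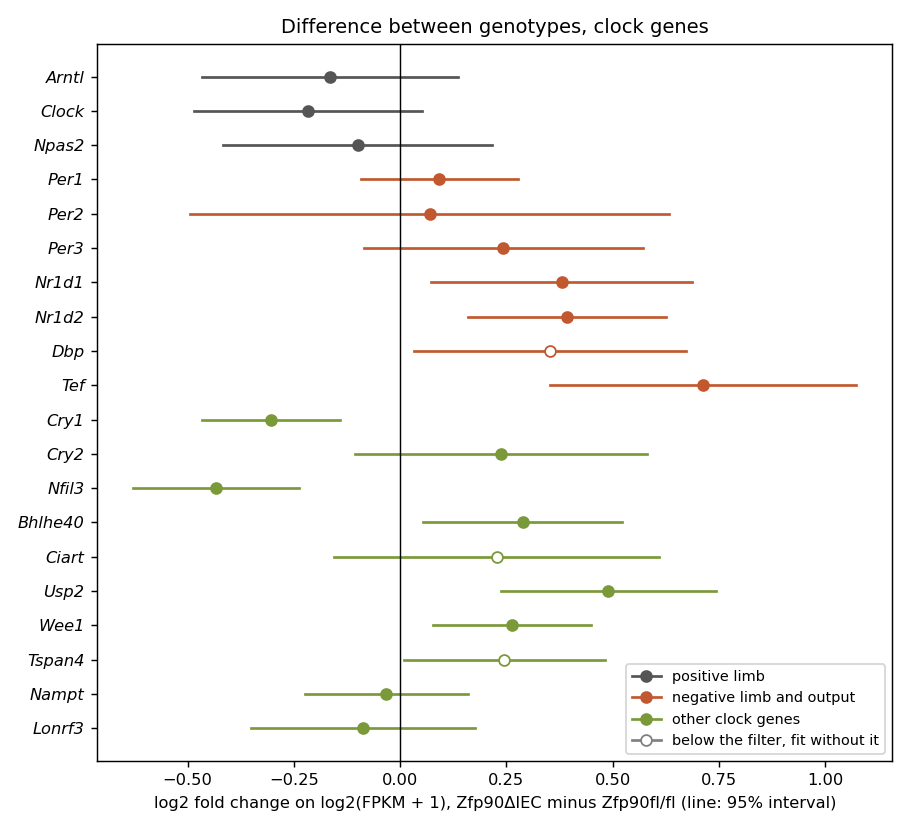
Log2 fold change on log2(FPKM + 1) (horizontal axis, Zfp90ΔIEC minus Zfp90fl/fl, n = 3 and 3) with its 95% interval for the 10 members and for other clock genes; open circles are genes below the filter. The intervals of the 3 positive limb genes cross 0, and that of Tef runs from 0.35 to 1.07.

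Genes of the rest of the core loop lay on both sides of 0. Of 9 further core clock genes, 4 passed the filter, and 0 passed an adjusted p under 0.05 in limma, while 1 was higher (6.56% of all genes) and 2 were lower (8.09% of all genes) at an unadjusted p under 0.05. Nfil3, the repressor that competes with DBP and TEF for D-boxes, was at 25.6, 29.98 and 29.4 FPKM in Zfp90fl/fl and at 20.5, 19.4 and 22.3 FPKM in Zfp90ΔIEC. These ranges did not overlap, and the log2 fold change was -0.43 (SE 0.0823, limma adjusted p = 0.0927), so that Nfil3 was on the lower side while Tef and Dbp were on the higher side. Cry1, which with PER proteins inhibits the activating pair, was at 8.92, 9.25 and 10.0 FPKM against 7.18, 7.95 and 7.16 FPKM. It too was lower without overlap (log2 fold change -0.30, limma adjusted p = 0.127). Bhlhe40, an E-box repressor, was at 52.7, 47.7 and 41.9 FPKM against 58.7, 53.0 and 62.2 FPKM, higher without overlap (log2 fold change 0.29, limma adjusted p = 0.260).

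Cry2 overlapped between genotypes (log2 fold change 0.24, limma adjusted p = 0.509). Rora, Rorb, Bhlhe41 and Hlf did not exceed 0.157 FPKM in any sample. Ciart, a repressor of the activating pair, was at 0.773, 0.389 and 0.599 FPKM against 0.645, 1.24 and 0.711 FPKM. Its highest sample was Zfp90ΔIEC replicate 2, the sample that was lowest for Arntl, Clock and Npas2.

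Among 5 clock output genes, 4 passed the filter, 2 of them (Usp2 and Wee1) higher without overlap, beside 8.73% of all genes, and 0 past an adjusted p under 0.05. Usp2, a ubiquitin-specific protease, was at 3.25, 2.82 and 3.80 FPKM in Zfp90fl/fl and at 4.41, 5.43 and 5.19 FPKM in Zfp90ΔIEC (log2 fold change 0.49, SE 0.107, limma adjusted p = 0.120). Wee1, a kinase that delays mitosis, was at 5.99, 5.06 and 5.64 FPKM against 7.40, 6.78 and 6.45 FPKM (log2 fold change 0.26, limma adjusted p = 0.206). Tspan4, a tetraspanin gene below the filter, was at 0.179, 0.271 and 0.274 FPKM against 0.687, 0.404 and 0.340 FPKM, also without overlap (log2 fold change 0.24, limma adjusted p = 0.484 without the filter). Nampt, the enzyme of NAD salvage, and Lonrf3 overlapped (log2 fold changes -0.033 and -0.087). Of 9 genes that modify clock proteins, 8 passed the filter, and 2 did not overlap, 1 in each direction. Of all genes, 8.73% were higher and 12.6% lower without overlap. Timeless, which also acts at replication forks, was higher (log2 fold change 0.33, limma adjusted p = 0.155) and Gsk3b, a kinase of clock proteins, was lower (-0.078, adjusted p = 0.552).

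FPKM is scaled to transcript length, so levels can be ordered between genes. In Zfp90fl/fl the order of the means was Nr1d1 (24.0 FPKM), Nr1d2 (8.50), Arntl (8.09), Per1 (7.69), Per2 (7.63), Clock (7.28), Npas2 (6.46), Tef (1.93), Per3 (1.58) and Dbp (0.576). Nr1d1 stood apart from Nr1d2, and each neighbouring pair from Nr1d2 down to Npas2 overlapped in range. Tef and Per3 overlapped with each other and were apart from Npas2 above and Dbp below. In Zfp90ΔIEC, Nr1d2 (11.4 FPKM) was apart from Per1 (8.28) below it, Per1, Per2, Arntl, Clock and Npas2 overlapped in turn, and Tef (3.83) was apart from Per3 (2.05).

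Single samples differed as much as the genotypes did for some members. The coefficient of variation within a genotype was 29.1% and 28.4% for Per2 (Zfp90fl/fl and Zfp90ΔIEC), 28.2% and 25.5% for Dbp, 21.5% and 21.2% for Per3 and 19.6% and 21.2% for Tef, where the median over all genes tested was 6.88% and 8.31%. Arntl had 2.47% in Zfp90fl/fl and 19.7% in Zfp90ΔIEC, where replicate 2 stood apart. Within Zfp90fl/fl, replicate 2 was the lowest in 6 of the 7 negative limb and output genes and the highest in 2 of the 3 positive limb genes, and replicate 1 was the highest in 6 of 7. Within Zfp90ΔIEC, replicate 2 was the lowest in 3 of 3 positive limb genes and replicate 3 the lowest in 6 of 7 negative limb and output genes, Nr1d1 being the exception with its highest value there.

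**Figure D3:**
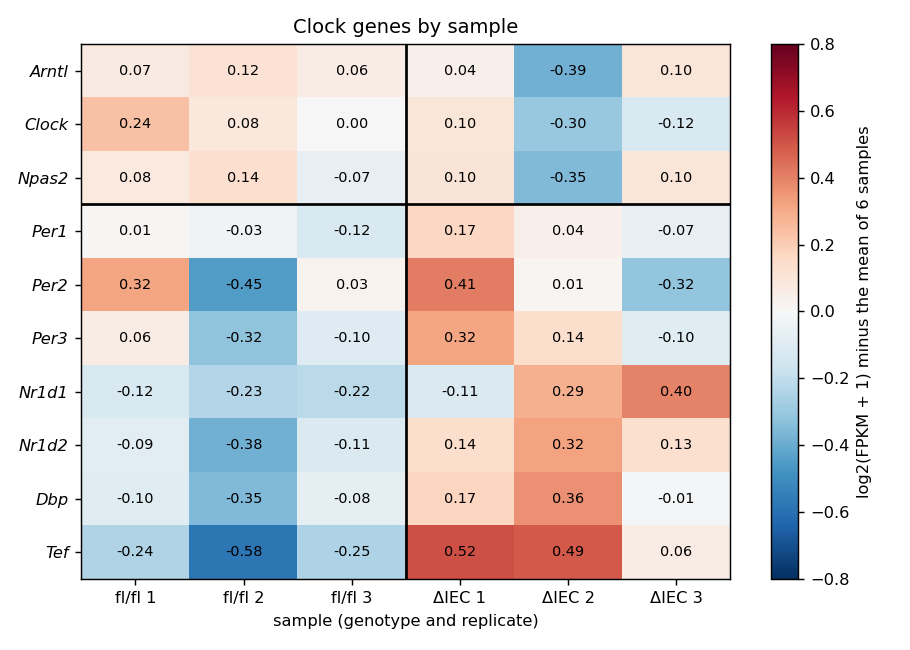
Each cell gives log2(FPKM + 1) of a clock gene (rows) in a sample (columns) minus the mean of the 6 samples, red above and blue below it; lines divide the limbs and the genotypes. Zfp90ΔIEC replicate 2 has the lowest positive limb values (Arntl -0.39) and Zfp90fl/fl replicate 2 the lowest Tef (-0.58).

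The mean log2(FPKM + 1) of the 3 positive limb genes was 3.09, 3.07 and 2.96 in Zfp90fl/fl replicates 1 to 3 and 3.04, 2.62 and 2.99 in Zfp90ΔIEC replicates 1 to 3. That of the 7 negative limb and output genes was 2.66, 2.34 and 2.56 against 2.91, 2.92 and 2.69. Positive limb means overlapped between genotypes, and negative limb means did not. Negative minus positive limb was -0.44, -0.73 and -0.40 in Zfp90fl/fl and -0.13, 0.30 and -0.30 in Zfp90ΔIEC, and Zfp90ΔIEC replicate 2 was the only sample of the 6 in which the negative limb exceeded the positive limb. The genotype means were -0.52 ± 0.180 and -0.04 ± 0.308 (SD, n = 3), a difference of 0.48 on this log2 scale, which was 0.31 without Zfp90ΔIEC replicate 2. The score has no p, since its genes were chosen with results known. Sampling phase and genotype cannot be told apart here, since the hour of killing is not known for any sample.

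**Figure D4:**
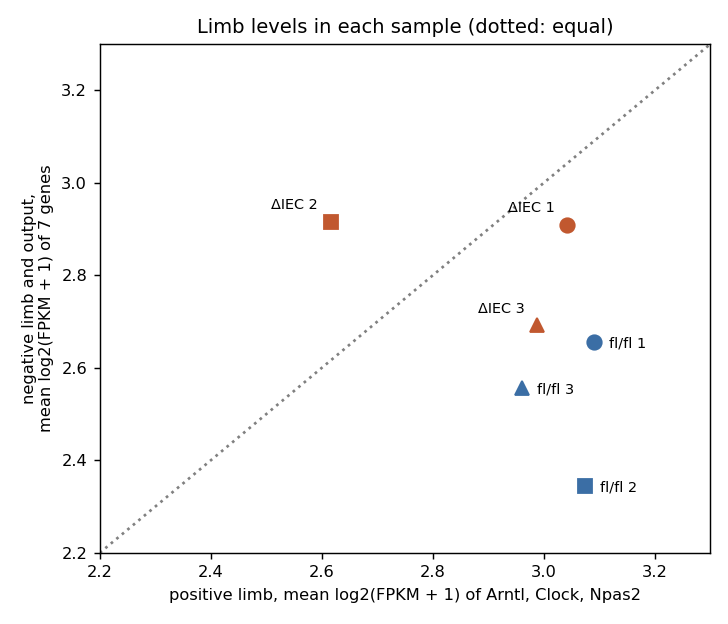
Mean log2(FPKM + 1) of the negative limb and output genes (vertical) against that of the positive limb (horizontal) in each of the 6 samples; the dotted line marks equality. Zfp90ΔIEC replicate 2 lies above the line at 2.62 and 2.92, and the other 5 samples lie below it.

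Ratios to Arntl separated the genotypes for Nr1d1 and Tef, and overlapped for Per2. The log2 ratio of Nr1d1 to Arntl was 1.65, 1.48 and 1.57 in Zfp90fl/fl and 1.69, 2.60 and 2.16 in Zfp90ΔIEC, separated by a narrow gap. For Tef to Arntl the log2 ratio was -1.89, -2.48 and -1.89 against -0.85, -0.39 and -1.50. For Per2 to Arntl the means were -0.13 ± 0.471 and 0.14 ± 0.527 (SD, n = 3), and the samples overlapped.

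Most pairs of members, but not every pair, had the sign of their limbs over the 6 samples. All 3 pairs within the positive limb had a Pearson r above 0, as did 19 of 21 pairs within the negative limb and output genes (median r 0.61), while 18 of 21 pairs between the limbs had an r below 0 (median -0.48). Of these 45 pairs, 8 had an unadjusted exact permutation p under 0.05 and 0 had an adjusted one, the lowest adjusted p being 0.104. Part of the pooled correlation among Nr1d2, Dbp and Tef is the genotype difference itself; with values centred within genotype, r was 0.91 for Nr1d2 and Dbp, 0.73 for Nr1d2 and Tef, and 0.89 for Dbp and Tef. Centred in this way, 6 of 21 pairs within the negative limb and output genes had an r below 0, among them Nr1d1 with Per1 (-0.74), Per3 (-0.53), Per2 (-0.51) and Tef (-0.47). Between the limbs the median centred r was -0.21, nearer to 0 than the pooled median, which also holds the genotype difference. Of these 21 centred pairs, 5 had an r above 0, with Clock at 0.67 to Per1, 0.54 to Per2 and 0.50 to Per3. Per2 and Per3 overlapped between genotypes and had an r of 0.86 (exact permutation p = 0.0389, adjusted p = 0.250) and a Spearman rho of 0.71 (exact permutation p = 0.136, adjusted p = 0.383). Without the 2 samples farthest from the median of Per2 this r was 0.52, and centred within genotype it was 0.99. Arntl and Npas2 had an r of 0.94 (exact permutation p = 0.0389, adjusted p = 0.250) and a rho of 0.66 (exact permutation p = 0.175, adjusted p = 0.438), and r was 0.23 without the 2 samples farthest from the median of Arntl, so that the relation rested on those samples. The other pairs within the positive limb also rested on such samples. Without the 2 farthest, r fell from 0.75 to -0.47 for Arntl and Clock and from 0.77 to 0.18 for Clock and Npas2.

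Some members followed single heat shock genes from sample to sample, in a comparison of the 10 members with 8 temperature-responsive genes (80 pairs) chosen after the values were seen. Hsph1, a chaperone gene that heat shock induces, was at 20.6, 9.10 and 18.6 FPKM in Zfp90fl/fl and at 32.0, 18.6 and 12.5 FPKM in Zfp90ΔIEC, the order that Per2 had within each genotype. Pearson r of Per2 with Hsph1 was 0.96 (exact permutation p = 0.00278, adjusted p = 0.111) and rho was 0.94 (exact permutation p = 0.0167, adjusted p = 0.533). It was 0.94 without the 2 samples farthest from the median of Per2 and 0.98 with values centred within genotype. Hsp90aa1, the inducible HSP90 gene, was at 127, 96.1 and 108 FPKM against 165, 152 and 108 FPKM. Per3 and Hsp90aa1 had an r of 0.97 (exact permutation p = 0.00278, adjusted p = 0.111) and a rho of 0.94 (exact permutation p = 0.0167, adjusted p = 0.533), with r at 0.98 without the 2 farthest samples and 0.96 within genotype. These were the 2 pairs with the lowest p. Other pairs of the Per genes ranged widely. Some were high, such as Per3 with Hsph1 (r 0.93), Per1 with Hsp90aa1 (0.84) and Per2 with Hspa1a (0.80). Others were near 0 or of opposite sign, such as Per1 with Hspa1a (0.14) and with Dnajb1 (-0.54) and Per3 with Dnajb1 (-0.08). Tef (0.89) and Dbp (0.85) also followed Hsp90aa1. Without the 2 samples farthest from the median of the clock gene, r fell to 0.45 for Tef with Hsp90aa1 and to 0.56 for Per3 with Hsph1. It was 0.79 for Dbp and 0.82 for Per1 with Hsp90aa1, and 0.77 for Per2 with Hspa1a. No pair among the 80 passed an adjusted p under 0.05, and 8 had an unadjusted exact permutation p under 0.05. Handling of single samples was not described in the sources used here, and its part in these values was not tested.

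**Figure D5:**
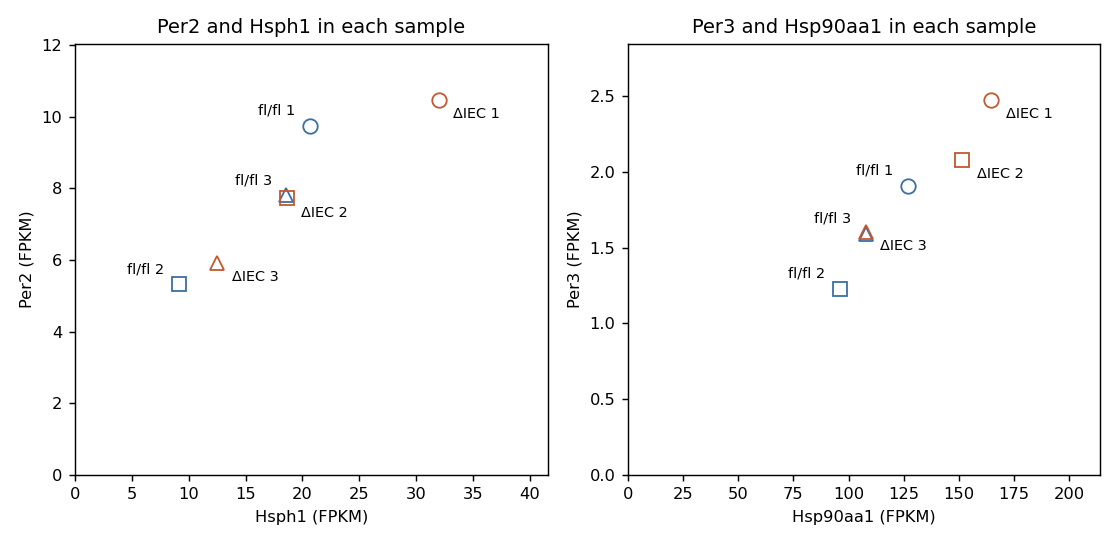
Per2 against Hsph1 (left) and Per3 against Hsp90aa1 (right), FPKM on both axes from 0, for the 6 samples, blue for Zfp90fl/fl and orange for Zfp90ΔIEC. Zfp90fl/fl replicate 2 is the lowest in both panels (Per2 5.33 and Hsph1 9.10 FPKM) and Zfp90ΔIEC replicate 1 the highest (Per2 10.5 and Hsph1 32.0 FPKM).

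Genes that respond to signals which also reset clocks were read beside the members. Of 6 glucocorticoid-responsive genes, 5 passed the filter, and Sgk1 and Fkbp5 were higher in Zfp90ΔIEC without overlap, beside 8.73% of all genes. Sgk1, a kinase that regulates sodium transport, was at 27.8, 28.6 and 25.1 FPKM against 37.7, 42.5 and 34.4 FPKM (log2 fold change 0.47, limma adjusted p = 0.0927). Fkbp5, a co-chaperone of the glucocorticoid receptor, was at 23.3, 29.0 and 24.3 FPKM against 35.8, 33.2 and 33.8 FPKM (0.41, adjusted p = 0.117). Tsc22d3, Klf9 and Errfi1, from the same list, overlapped. Of 8 temperature-responsive genes, Rbm3, a cold-inducible RNA-binding protein gene, was the only one without overlap (lower, beside 12.6% of all genes, log2 fold change -0.21, limma adjusted p = 0.220). Of 9 immediate early genes, 0 had an unadjusted p under 0.05 and 1, Jun, did not overlap (higher, beside 8.73% of all genes, 423 to 434 against 441 to 447 FPKM). No gene of these 3 lists passed an adjusted p under 0.05.

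Markers of the labelled tissue were abundant, and markers of other cells moved with genotype. Summed FPKM of 10 colon epithelium markers was 8853 to 11032 in Zfp90fl/fl and 11811 to 15530 in Zfp90ΔIEC, a separation carried by Car1, a carbonic anhydrase gene of surface colonocytes. Without Car1 the sums overlapped, at 4820 to 5404 against 5351 to 5471 FPKM, and Epcam, Krt8, Krt20, Vil1, Cdh1 and Cdx2 each overlapped. Singly, 4 of the 10 were higher without overlap, beside 8.73% of all genes tested. These were Car1, Slc26a3, Krt18 (290 to 315 against 324 to 367 FPKM) and Muc2 (431 to 444 against 465 to 1010 FPKM). Car1 likewise carried the sum of 5 surface colonocyte genes (4527 to 6187 against 6914 to 10784 FPKM, 3 of the genes being also in the epithelium list), which without it overlapped at 495 to 613 against 566 to 775 FPKM. Singly, 3 of these 5 genes (Car1, Slc26a3 and Aqp8) were higher without overlap, beside 8.73% of all genes tested. Of 5 crypt base and proliferation genes, the proliferation genes Mki67 and Top2a were higher without overlap, beside 8.73% of all genes tested. Mki67 was past the threshold (log2 fold change 0.41, limma adjusted p = 0.0478), and Lgr5, Ascl2 and Smoc2 overlapped.

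Of 12 leukocyte markers, 8 were lower in Zfp90ΔIEC without overlap, beside 12.6% of all genes tested. Only 1 of the 12 passed the filter for testing. The 8 were Ptprc, Cd3e, Cd79a, Jchain, Itgam, Adgre1, S100a8 and S100a9. Levels were low, with 9 of the 12 under 1 FPKM in every sample. Itgam, an integrin gene of myeloid cells, ran from 0.928 to 1.01 FPKM in Zfp90fl/fl and from 0.132 to 0.180 FPKM in Zfp90ΔIEC, and the neutrophil genes S100a8 and S100a9 were listed at 0 in all 3 Zfp90ΔIEC samples. The list summed to 9.26 to 10.3 against 5.21 to 9.52 FPKM, and without Kit, its most abundant gene, to 4.21 to 5.90 against 1.05 to 1.51 FPKM. Stromal and vessel markers (11) summed to 0.627 to 0.827 against 0.621 to 1.24 FPKM, and neuronal and glial markers (4) to 0.356 to 0.387 against 0.233 to 0.360 FPKM, each gene under 1 FPKM in every sample. The leukocyte, surface colonocyte and proliferation genes named here separate the genotypes as Nr1d1, Nr1d2, Dbp and Tef do, and their part in the clock values was not tested; in bulk samples a shift in cell numbers and a change of RNA per cell cannot be told apart.

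Ranked by Pearson r with the negative minus positive limb difference over the 6 samples, 6655 tested genes with a mean of at least 5 FPKM gave Phf5a (0.99), Vars (0.99), Gstp1 (0.99), Tubg1 (0.98) and Ecsit (0.97) at the top and Epc2 (-0.99), Npc2 (-0.98), Tlk1 (-0.98), Rpl36a (-0.98) and Tmem87b (-0.98) at the bottom. These genes were picked as the extremes of a large number of genes over 6 points and are a description. On the same measure Nfil3 stood at -0.88, Cry1 at -0.53, Bhlhe40 at 0.37 and Cry2 at 0.71. The outputs were at 0.85 (Usp2), 0.79 (Wee1), 0.29 (Nampt) and -0.14 (Lonrf3), and the glucocorticoid-responsive genes at 0.83 (Sgk1), 0.52 (Fkbp5), -0.46 (Tsc22d3), -0.53 (Errfi1) and -0.66 (Klf9), on both sides of 0. Phf5a, a splicing factor subunit gene, ran from 35.0 to 37.4 FPKM in Zfp90fl/fl and from 38.3 to 43.9 FPKM in Zfp90ΔIEC, highest in the sample in which the negative limb exceeded the positive limb.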

How the data were processed

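Colon epithelial RNA of mice treated with AOM and DSS, 3 Zfp90fl/fl and 3 Zfp90ΔIEC samples, was sequenced from TruSeq libraries. The authors deposited a table of FPKM per Ensembl gene for each sample. The submitters' processing notes name FastQC, STAR 2.5, Cuffnorm, DESeq 1.22.1 and mm9, without roles. The study's methods differ from these notes and name TopHat, a human genome build and Cuffdiff. The files carry no coordinates, so positions come from the GENCODE annotation of GRCm38 and RefSeq GRCm38.p6, matched by gene ID or symbol; 52403 of 52550 IDs had a symbol.

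FPKM values were tested as log2(FPKM + 1) with limma 3.58.1 (linear model, intensity trend, Benjamini-Hochberg adjustment) in R 4.3.3, genotype as the term, with a threshold of 0.05, on 11564 genes that reached 1 FPKM in 3 or more samples. Genes below the filter were read from the same fit without it. Intervals are 95% t intervals from this fit. Correlations used exact two-sided permutation over all pairings of 6 samples (scipy 1.17.1), adjusted over 45 or 80 pairs. Tables were made in Python 3.11.15 with pandas 2.3.3 and numpy 2.4.6, and plots with matplotlib 3.10.9. The tests were tried on simulated data.

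Depth is not given in the files. From the steps of low values in genes with a single transcript it was estimated at 25.9 to 28.8 M fragments per sample, roughly, since 53.4% to 57.1% of values lay within 0.1 of a whole step. Summed FPKM ran from 429999 to 446674.

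The members and gene lists were chosen with earlier results of these data known, and 1 further listed gene was left out and is not reported here. Genes named are the members, the further core clock and clock output genes, listed genes whose genotypes do not overlap or that a correlation turns on, genes sharing exons with a member, and the 5 genes at each end of the ranking by the limb difference; Hsph1, Hsp90aa1, Hspa1a, Dnajb1, Jun, the marker genes (Mki67 and others), Timeless, Gsk3b, Sgk1, Fkbp5 and Rbm3 were named after their values were seen. Sums of marker lists without Kit or Car1 were added after seeing the data. Alternatives were another pseudocount, other filters, quantile and median ratio scaling, no trend, the replicate block and each sample left out.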

Additional observations from a re-analysis of the deposited data

How the results depend on the processing

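Under each alternative, 0 members and 0 genes of the other clock, glucocorticoid, temperature and immediate early lists that the fit held passed an adjusted p under 0.05 in limma. The number of genes past the threshold, 23, was 15 without a filter, 13 with a pseudocount of 0.1, 47 with the replicate block and 10 to 21 with a sample left out. The limb difference of 0.48 was 0.31 to 0.61 with a sample left out and 2.03 in SD units with each gene scaled to unit SD, a different unit. Fold changes that turned sign with a sample left out were those of Npas2 (-0.18 to 0.051), Per2 (-0.14 to 0.25) and Nampt (-0.084 to 0.031); the cause was not tested. The other 304 values of single genes under the alternatives kept their direction and side of the threshold. Replicate numbers were checked for pairing: deviations of samples sharing a number correlated at 0.194, 0.11 and 0.0782, each sample best with its own number, which is a hint from the data and not from the design. Depth limits Dbp (20.1 to 67.8 estimated fragments per sample) most among the members, and Ciart (21.2 to 69.4), Rora, Rorb, Bhlhe41 and Hlf (0 to 47.3) among the other clock genes.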
